A study of Drosophila melanogaster with 11 samples.

Results

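The genes described here surround the microRNA gene mir-284 on the right arm of chromosome 3 of Drosophila melanogaster. A gene was a member when it lay on 3R between bases 11551565 and 13551565 of the dm6 build, that is within 1 Mb of the centre of mir-284, and had 10 or more counts summed over the 11 libraries. Members chosen in this way numbered 238, of 16727 genes in the count table. Genes of the glutathione S-transferase, heat shock, UDP-glycosyltransferase, cytochrome P450, cuticle, peptidoglycan recognition, ribosomal and proteasome families were left out by the start of their names, and mir-284, CG14395, CG31157 and PK2-R1 were left out one by one. This choice of names was made with results of the same libraries known, so counts with and without it are both given. The choice by position used no expression difference.

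A microRNA guides Argonaute proteins to sites in the 3′ untranslated regions of messenger RNAs and lowers their stability or translation, wherever in the genome those targets are encoded. A knockout allele is also a piece of chromosome. Crossing a strain repeatedly to another replaces most of the genome, while sequence close to the selected locus tends to travel with it, so neighbours of a deleted gene are compared with distant genes to see whether differences gather around the locus.

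RNA-seq libraries were made from the third antennal segment, the funiculus, which carries most of the fly's olfactory sensilla. The KO flies carried the mir-284 knockout in the w1118 strain after 7 outcrosses to w1118, and the WT flies were w1118. The KO groups were sampled 3 d (n = 3) and 25 d (n = 2) after eclosion, and the WT groups at the same ages (n = 3 each). All groups share the w1118 background, and the replicates are described in the design text as biological, without saying how many flies or cultures stand behind each.

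Total counts were 24619699 to 55485825 per library, and members took 1.27% to 1.70% of them. KO 25 d replicate 1 stood apart, at 84.9 on the first principal component against -25.1 to 16.5 for the other 10 libraries, and its share of counts on members was the lowest. On the second component the third replicates of the 3 d groups lay at 37.1 (KO) and 58.3 (WT), against -18.3 to -4.20 for the others. All 13 markers of the antenna were found and none was at 0 in any group, with a summed level of 37610 to 42650 CPM (read counts scaled to an equal library total) in KO 3 d, 17530 to 34270 CPM in WT 3 d, 26430 to 105500 CPM in KO 25 d and 29610 to 31940 CPM in WT 25 d. The 3 markers of males (roX1, roX2 and msl-2) were all found and none was at 0, and their summed level was 789 to 1277 CPM in KO 3 d, 2506 to 3870 CPM in WT 3 d, 1321 to 2763 CPM in KO 25 d and 2043 to 3272 CPM in WT 25 d. The 6 markers of fat body and females, likewise all found, summed to 2103 to 8709 CPM in KO 3 d, 16.7 to 5167 CPM in WT 3 d, 937 to 2551 CPM in KO 25 d and 149.5 to 1457 CPM in WT 25 d. The part of these markers in the genotype differences below was not tested, and in bulk libraries fewer cells of a type and less RNA per cell cannot be told apart. The white gene w, which lies on the X chromosome, averaged 126 ± 24.2 CPM in KO 3 d and 1.61 ± 0.680 CPM in WT 3 d (SD, n = 3 each).

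The locus itself gave no check of the genotype. mir-284 lies at 3R:12551515-12551614 on the minus strand, inside the last exon of long isoforms of Octbeta2R, and had 0 counts in every KO and every WT library. The libraries were selected for polyadenylated RNA and a read over the exons of both genes would be counted for neither, so a count of 0 says nothing about the microRNA. Of the 238 members, 132 lie on the side of lower coordinates (left), 105 on the side of higher coordinates (right), and Octbeta2R spans the locus. Protein-coding genes made up 227 of them and non-coding RNA genes 10. The exons of 67 members overlap a gene on the opposite strand, and because strand was ignored in counting, the values of these genes are uncertain.

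Enough counts for the test were present for 206 members, 116 on the left, 89 on the right and Octbeta2R. Their mean level over the 4 groups spanned 0.0584 to 1851 CPM with a median of 18.5 CPM. A level of at least 100 CPM was reached by 35 members, 130 lay between 1 and 100 CPM and 41 were under 1 CPM. The highest was Lk6, a kinase that phosphorylates the translation factor eIF4E, with 1583, 1688 and 1543 CPM in KO 3 d, 1554, 1585 and 1795 CPM in WT 3 d, 3218 and 1796 CPM in KO 25 d, and 1715, 1861 and 1369 CPM in WT 25 d. The KO and WT ranges of Lk6 overlapped at 3 d and at 25 d, where replicate 1 of KO was the high library. Desat1, the fatty acid desaturase, followed with means of 1700.0 ± 604 CPM in KO 3 d and 1635 ± 57.4 CPM in WT 3 d (SD, n = 3 each). Vha55, a subunit of the vacuolar proton pump, CG6908, of the ecdysteroid kinase-like family, and CG10126, an EF-hand protein, came next, and per kb of gene model CG10126 was the highest member.

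The first question was whether members differed between genotypes more often than other genes did. At 3 d, 1 of the 206 tested members was called at an adjusted p under 0.05 in KO against WT (0.485%), as a decrease, and the share over all 11867 genes tested was 1.39%, with 0.742% called lower. At 25 d 2 members were called (0.971%), against 1.74% of all genes; 1 was higher in KO and 1 lower, against 0.986% and 0.75% of all genes. With both ages averaged, 10 members were called (4.85%), against 5.32% of all genes; 6 were higher and 4 lower in KO, against 2.91% and 2.41% of all genes. The share of members called was below the share of all genes in each of the 3 comparisons. Members lack the names left out, however, while all genes keep them. With no name left out, the shares of the window were 2.61% at 3 d, 3.48% at 25 d and 9.13% averaged, each above that of all genes. At an unadjusted p under 0.05, the shares of members were 11.7% at 3 d, 23.8% at 25 d and 26.7% averaged, against 11%, 20.6% and 23.5% of all genes. The median absolute log2 fold change of members was 0.26 at 3 d, 0.50 at 25 d and 0.34 averaged, against 0.26, 0.45 and 0.32 over all genes.

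These counts rest on few calls and moved with single libraries. At 3 d, 10 members were called without KO 25 d replicate 1 (4.50%, against 4.70% of all genes) and 10 without KO 25 d replicate 2 (4.52%, against 4.68%), and 2 without replicate 3 of KO 3 d, WT 3 d or WT 25 d. At 25 d, 92 were called without KO 25 d replicate 2, which leaves replicate 1 as the lone library of its group, assumed to vary like the other groups; the share of all genes was then 40.3%, against 41.6% of members. The count at 25 d was 4 without WT 3 d replicate 3 (1.98%, against 2.44% of all genes) and 1 without any other KO 3 d or WT library. The averaged count was 5 without WT 3 d replicate 1 (2.46%, against 3.13% of all genes). It was 6 without KO 3 d replicate 1 (2.94%, against 3.24%) or WT 3 d replicate 2 (2.93%, against 3.1%). Without any 1 WT 25 d library it was also 6 (2.93% to 2.97%, against 3.08% to 3.32%). Without the 3 libraries that stood apart together, a choice made after seeing the data, 29 members were called at 3 d (13.8%), 15 at 25 d (7.14%) and 36 averaged (17.1%), against 12.5%, 7.38% and 16.4% of all genes, and all 10 averaged calls above were among the 36.

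The second question was whether differences grew toward the locus. No member within 250 kb was called in KO at 3 d, at 25 d or averaged by edgeR, although 57 were tested there; at an unadjusted p under 0.05 the counts were 4 (7.02%), 8 (14%) and 12 (21.1%), against 11%, 20.6% and 23.5% of all genes. DESeq2 called 2 (3.57%), 4 (7.27%) and 5 (8.77%) of them, against 4.88%, 9.52% and 13.2% of all genes, and limma voom called 0 in each. The median absolute log2 fold change of these 57 was 0.28 at 3 d, 0.39 at 25 d and 0.25 averaged, against 0.26, 0.45 and 0.32 over all genes. The count of 0 by edgeR did not hold in every setting. Without KO 25 d replicate 1, edgeR called 2 (CG17202 and Aos1) at 3 d, and kar at 25 d and averaged, of 60 tested (3.33%, 1.67% and 1.67%, against 4.70%, 1.03% and 4.99% of all genes). Without KO 25 d replicate 2 it called 2, 27 and 22 of 59 (3.39%, 45.8% and 37.3%, against 4.68%, 40.3% and 39.2% of all genes). Without WT 3 d replicate 3 Octbeta2R was called averaged, and with opposite-strand overlaps left out CG17202 was. By bins of distance, the averaged comparison called 0 of 3 members under 50 kb, 0 of 12 at 50 to 100 kb, 0 of 42 at 100 to 250 kb, 5 of 42 (11.9%) at 250 to 500 kb and 5 of 107 (4.67%) at 500 to 1000 kb. The share was highest in the fourth of these 5 bins.

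**Figure D1:**
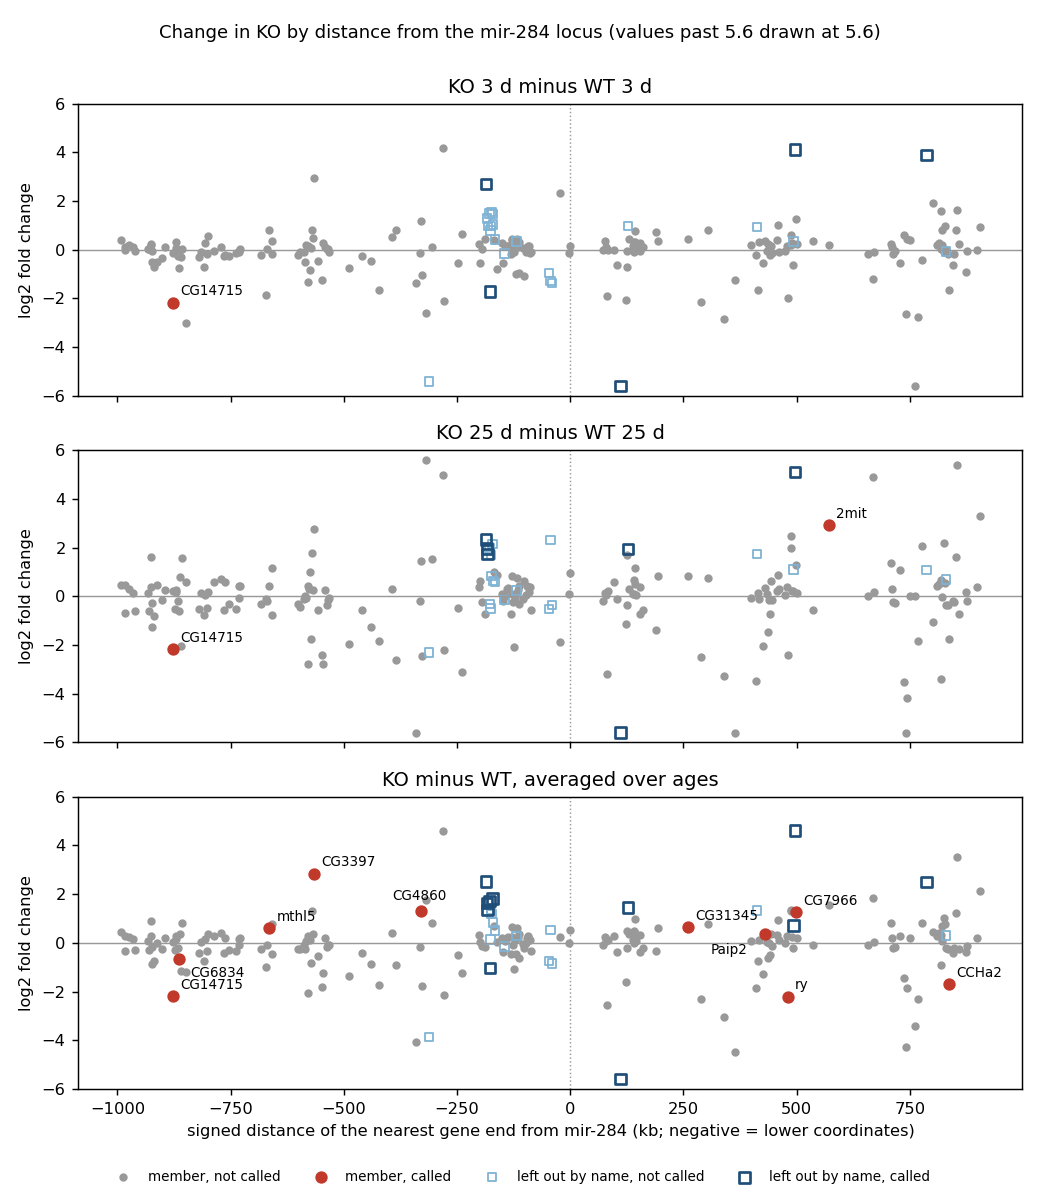
Log2 fold change (KO over WT) of genes in the window against signed distance from mir-284 in kb, at 3 d, at 25 d and averaged; members not called are grey, called members red and genes left out by name blue squares, with values past 5.6 drawn at 5.6. No called member lies within 250 kb on either side of 0, and blue squares cluster between 100 and 250 kb on the left.

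Going outward over the same bins, the median absolute averaged log2 fold changes were 0.22, 0.18, 0.34, 0.79 and 0.30. The bin at 250 to 500 kb also held the lowest expressed members, with a median level of 4.52 CPM. On its left side 14 tested members had a median level of 1.68 CPM and a median absolute log2 fold change of 1.33. The 28 on its right had 14.4 CPM and 0.55, against 0.32 over all genes. Of the 5 averaged calls in this bin, 4 were on the right (14.3%) and 1 on the left (7.14%), against 5.32% of all genes. Across the 206 tested members the Spearman correlation of the absolute averaged log2 fold change was -0.46 with mean CPM and 0.0645 with distance, as a description of genes that share the same 11 libraries. On the left the correlation with distance was 0.0447 (n = 116) and on the right 0.130 (n = 89). At 3 d it was -0.0531 over all, -0.158 on the left and 0.0994 on the right, and at 25 d 0.0476, 0.00750 and 0.135. These bin medians and correlations cover members alone, without the genes left out by name with their values known. Neither was taken with those genes kept, so they cannot show how changes run with distance over the whole window. Within classes of level, the averaged comparison called 0 of 41 members under 1 CPM (0%, against 1.57% of all genes at that level), 3 of 50 at 1 to 10 CPM (6%, against 6.56%), 5 of 80 at 10 to 100 CPM (6.25%, against 6.28%) and 2 of 35 at 100 CPM or more (5.71%, against 5.51%).

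Genes left out by name changed this picture between 100 and 250 kb. Of the 24 that were tested, 5 were called at 3 d (20.8%), 6 at 25 d (25.0%) and 11 averaged (45.8%), and 8 of the 15 at 100 to 250 kb were called averaged (53.3%). With them the averaged comparison called 21 of 230 genes in the window (9.13%, against 5.32% of all genes). Of these, 15 were higher and 6 lower in KO, against 2.91% and 2.41% of all genes. At 3 d 6 were called (2.61%, against 1.39%) and at 25 d 8 (3.48%, against 1.74%). The window with these names thus lay above all genes in each comparison. By bin the averaged counts became 0 of 6, 0 of 12, 8 of 57 (14%), 7 of 46 (15.2%) and 6 of 109 (5.50%). Because these genes were set aside after their values were known, neither version is an independent measure of the neighbourhood.

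The genes left out included a run of glutathione S-transferases, enzymes that conjugate glutathione to foreign compounds. GstD10, 185780 bases to the left, rose to 17.8, 15.99 and 10.96 CPM in KO 3 d and 17.9 and 9.98 CPM in KO 25 d, against 2.28, 1.96 and 2.61 CPM in WT 3 d and 2.86, 1.80 and 3.71 CPM in WT 25 d. No KO library overlapped a WT library. GstD3 of the same cluster was called in the other direction, with 9.54 ± 1.14 CPM in KO 3 d and 31.5 ± 6.39 CPM in WT 3 d (SD, n = 3 each). CG14395, 111217 bases to the right, had 0 counts in each KO 3 d library and 0 and 2 counts in the KO 25 d libraries, against 1192, 1080 and 553 counts in WT 3 d and 989, 1081 and 821 counts in WT 25 d. PK2-R1, a receptor for pyrokinin peptides such as those encoded by Hug, averaged 6.11 ± 2.92 CPM in KO 3 d and 0.407 ± 0.142 CPM in WT 3 d (SD, n = 3 each), and was called at 3 d (adjusted p = 0.0348, edgeR) and averaged (adjusted p = 0.0215, edgeR).

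Farther out on 3R the averaged comparison called 16 of 198 genes at 1 to 2 Mb (8.08%), 38 of 653 at 2 to 5 Mb (5.82%) and 78 of 1815 beyond 5 Mb (4.30%). The other arms ranged from 2.88% on 3L to 7.65% on 2R. The share of members, 4.85%, lay within the range of the other arms, and the share at 1 to 2 Mb was above it. Members lack the names left out, while the other arms and the bins beyond 1 Mb keep them, so these shares are not of like sets. A 2 Mb window with the same names left out had 6.01% called. With no name left out, the share of the window, 9.13%, was also above that range.

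**Figure D2:**
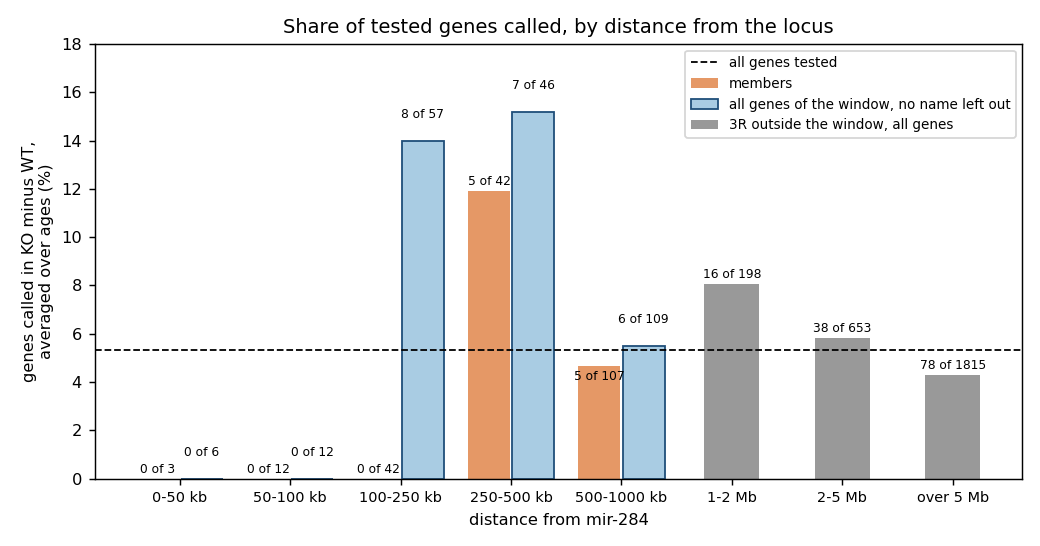
Percent of tested genes called in KO averaged over ages (adjusted p under 0.05) by distance bin in kb, for members (orange), for the window including names left out (blue) and for 3R outside the window (grey), with the share over all genes, 5.32%, as a dashed line. Members are at 0% in the 3 inner bins and at 11.9% at 250 to 500 kb; with the left-out names the bin at 100 to 250 kb stands at 14%.

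The genes nearest the locus encode signalling proteins. Octbeta2R, the receptor for octopamine whose last exon holds mir-284, had 32.6, 33.6 and 40.2 CPM in KO 3 d and 27.6, 24.1 and 45.0 CPM in WT 3 d. It had 50.02 and 31.5 CPM in KO 25 d and 24.1, 22.04 and 17.2 CPM in WT 25 d. The genotypes overlapped at 3 d and did not at 25 d, where both KO libraries were higher. The log2 fold changes were 0.14 (SE 0.26, adjusted p = 0.924, edgeR) at 3 d, 0.95 (SE 0.29, adjusted p = 0.127, edgeR) at 25 d and 0.54 (SE 0.19, adjusted p = 0.130, edgeR) averaged, so Octbeta2R was not called. Among fits that kept both KO 25 d libraries, DESeq2 called it at 25 d, and edgeR averaged without WT 3 d replicate 3. Fits with 1 KO 25 d library did not all leave Octbeta2R uncalled.

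Octbeta3R, a related octopamine receptor that ends 3286 bases to the left, had 100.2, 86.2 and 85.3 CPM in KO 3 d, 99.7, 103 and 97.3 CPM in WT 3 d, 85.8 and 98.9 CPM in KO 25 d, and 93.7, 88.0 and 77.7 CPM in WT 25 d. Its genotypes overlapped at both ages, and the averaged log2 fold change was -0.02 (SE 0.10). Hug, which encodes the hugin neuropeptide precursor and lies on the opposite strand within the span of Octbeta3R, was near the limit of counting, with 1.51, 1.43 and 5.43 CPM in KO 3 d, 0.293, 0.516 and 0.842 CPM in WT 3 d, 0 and 0.507 CPM in KO 25 d, and 0.374, 0.534 and 1.95 CPM in WT 25 d. The KO libraries of Hug lay above those of WT at 3 d and overlapped them at 25 d, and neither difference was called (adjusted p = 0.531 and 0.431, edgeR).

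The next members outward were not called. On the right, Vha55 averaged 1066 ± 137 CPM in KO 3 d and 1067 ± 253 CPM in WT 3 d (SD, n = 3 each), with an averaged log2 fold change of -0.09 (SE 0.16). Snx3, a sorting nexin of endosomes, gave 0.23 (SE 0.10) and Not10, of the CCR4-NOT deadenylase complex, gave 0.08 (SE 0.11) on the same scale. CG18530 and CG11598, the remaining pair of the 5 nearest on the right, averaged under 1 CPM in every group. On the left, CG5608, CG12267 and CG5961, at 86217 to 91221 bases, had averaged log2 fold changes of -0.34 (SE 0.13), 0.12 (SE 0.20) and 0.16 (SE 0.12). CG5608 did not overlap between genotypes at either age, with 26.2, 27.0 and 26.4 CPM in KO 3 d, 28.7, 28.5 and 27.7 CPM in WT 3 d, 16.8 and 27.2 CPM in KO 25 d, and 32.7, 30.5 and 35.5 CPM in WT 25 d. All KO libraries of CG5608 were the lower ones, by a margin that did not pass the test (adjusted p = 0.151, edgeR).

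The 11 members called in any KO comparison lay 259531 to 876592 bases from the locus, 5 on the left and 6 on the right. They are described from left to right by what they encode. None is Octbeta2R or one of the 57 tested members within 250 kb.

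**Figure D3:**
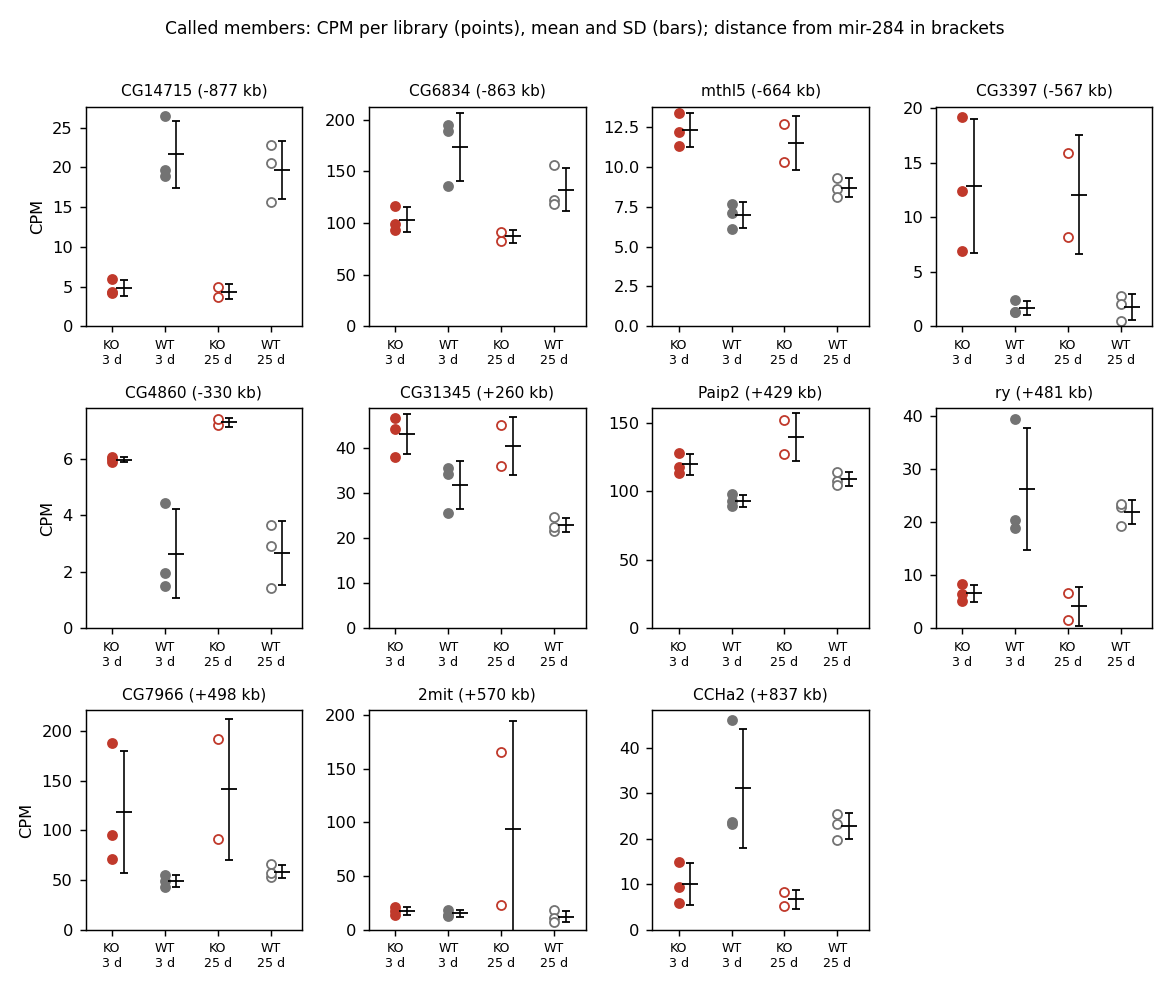
CPM of the 11 called members in every library, by group in the order KO 3 d, WT 3 d, KO 25 d and WT 25 d; points are libraries, with the mean and SD as bars. The KO and WT points of CG14715, CG3397, ry and CCHa2 do not overlap at either age, and 2mit has 1 KO 25 d point at 165 CPM with the other at 23.2 CPM.

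Enzymes and genes known by annotation number alone come first. CG14715 (3R:11674221-11674923, plus strand, 876592 bases to the left) was the sole member called at both ages. It fell to 4.17, 4.38 and 5.91 CPM in KO 3 d and 5.005 and 3.69 CPM in KO 25 d, against 18.9, 19.6 and 26.5 CPM in WT 3 d and 22.9, 20.6 and 15.7 CPM in WT 25 d. Every KO library was below every WT library. The log2 fold change was -2.17 (SE 0.24, adjusted p = 0.00184, edgeR) at 3 d, -2.18 (SE 0.28, adjusted p = 0.00491, edgeR) at 25 d and -2.17 (SE 0.19, adjusted p = 0.000149, edgeR) averaged. The call at 25 d was lost when only the 25 d groups were fitted (adjusted p = 0.0751, edgeR). The end of CG14715 overlaps CG18476 on the opposite strand, so its counts are uncertain; CG18476 itself averaged 22.2 ± 1.79 CPM in KO 3 d and 23.6 ± 2.44 CPM in WT 3 d (SD, n = 3 each) and was not called.

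CG6834 (3R:11684672-11688133, minus strand), of the ecdysteroid kinase-like family, had 117, 99.1 and 93.7 CPM in KO 3 d, 189.6, 195 and 136 CPM in WT 3 d, 82.6 and 91.9 CPM in KO 25 d, and 122, 119 and 156 CPM in WT 25 d. The KO libraries were the lower ones at both ages without overlap, and CG6834 fell by 0.68 on the log2 scale averaged (SE 0.13, adjusted p = 0.0156, edgeR). The call was lost without WT 3 d replicate 1 (adjusted p = 0.0507, edgeR). Its neighbours of the same family, CG6830 and CG6908, had averaged log2 fold changes of -0.23 and 0.38 and were not called.

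CG3397 (3R:11983098-11984541, minus strand), an aldo-keto reductase, rose to 6.95, 12.4 and 19.2 CPM in KO 3 d and 15.9 and 8.23 CPM in KO 25 d, against 1.33, 1.31 and 2.42 CPM in WT 3 d and 2.75, 2.08 and 0.478 CPM in WT 25 d. Every KO library was above every WT library, and the averaged log2 fold change of 2.84 (SE 0.45, adjusted p = 0.00498, edgeR) was the largest increase among called members. The single ages gave 2.93 (adjusted p = 0.0504, edgeR) and 2.76 (adjusted p = 0.0631, edgeR), neither under the threshold. The adjoining aldo-keto reductase CG18547 had 16.4, 18.2 and 22.2 CPM in KO 3 d, 8.91, 6.70 and 16.4 CPM in WT 3 d, 89.9 and 22.6 CPM in KO 25 d, and 18.1, 17.7 and 13.9 CPM in WT 25 d. Its KO libraries were also the higher ones, and its averaged log2 fold change of 1.29 was not called (adjusted p = 0.0527, edgeR). DESeq2 called CG18547 at 25 d (adjusted p = 0.014, DESeq2). CG12224, between these genes, gave 0.37 (adjusted p = 0.492, edgeR).

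CG4860 (3R:12219881-12221464, minus strand), an acyl-CoA dehydrogenase, had 5.87, 5.98 and 6.05 CPM in KO 3 d, 1.96, 1.49 and 4.43 CPM in WT 3 d, 7.19 and 7.42 CPM in KO 25 d, and 2.91, 3.63 and 1.43 CPM in WT 25 d. The KO libraries lay close together above all WT libraries. CG4860 rose by 1.32 on the log2 scale averaged (SE 0.34), with an adjusted p of 0.0491 by edgeR, and lost its call under 13 of 20 other settings.

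On the right, ry (3R:13032528-13038020, plus strand), the rosy gene of xanthine dehydrogenase, which makes urate from purines, fell to 6.33, 5.06 and 8.23 CPM in KO 3 d and 1.51 and 6.68 CPM in KO 25 d. Its WT levels were 18.9, 20.3 and 39.4 CPM at 3 d and 22.7, 23.4 and 19.2 CPM at 25 d. No KO library reached a WT library, and the averaged log2 fold change was -2.21 (SE 0.37, adjusted p = 0.00699, edgeR). The genes next to ry were not called: l(3)87Df gave 0.27 (adjusted p = 0.362, edgeR), and CG11668 and snk, which overlap on opposite strands, gave 1.29 and 1.34.

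CG7966 (3R:13049398-13051453, minus strand), a selenium-binding protein related to methanethiol oxidase, had 95.4, 71.4 and 188 CPM in KO 3 d, 48.9, 42.7 and 55.5 CPM in WT 3 d, 192 and 91.0 CPM in KO 25 d, and 52.8, 65.8 and 56.6 CPM in WT 25 d. The KO libraries were higher at both ages and spread more widely than WT. CG7966 rose by 1.27 on the log2 scale averaged (SE 0.26, adjusted p = 0.0194, edgeR), and lost its call when any of 5 libraries was left out, KO 25 d replicate 1 among them (adjusted p at most 0.0802, edgeR). CG31157, 103 bases away and left out by name, averaged 9.68 ± 0.732 CPM in KO 3 d and 0.556 ± 0.306 CPM in WT 3 d (SD, n = 3 each), an averaged log2 fold change of 4.61. It was the only one of the 22 tested genes next to the 11 called members that was itself called in the averaged comparison.

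Regulatory and signalling members were fewer. mthl5 (3R:11883938-11887168, minus strand), a G protein-coupled receptor of the methuselah-like family, had 13.4, 11.3 and 12.2 CPM in KO 3 d, 7.11, 6.11 and 7.69 CPM in WT 3 d, 12.7 and 10.3 CPM in KO 25 d, and 8.62, 8.13 and 9.30 CPM in WT 25 d. All KO libraries were the higher ones, and mthl5 rose by 0.61 on the log2 scale averaged (SE 0.14, adjusted p = 0.0271, edgeR). The call was lost in 8 of the 11 fits without 1 library (adjusted p at most 0.0900, edgeR).

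CG31345 (3R:12811145-12817029, minus strand), an EF-hand calcium-binding protein and the called member nearest to the locus, had 46.7, 38.1 and 44.2 CPM in KO 3 d, 35.5, 34.2 and 25.6 CPM in WT 3 d, 45.0 and 35.9 CPM in KO 25 d, and 21.5, 22.4 and 24.7 CPM in WT 25 d. The genotypes did not overlap at either age, with KO higher, and CG31345 rose by 0.63 on the log2 scale averaged (SE 0.12, adjusted p = 0.0145, edgeR). Leaving out KO 3 d replicate 1 or WT 25 d replicate 2 ended the call (adjusted p at most 0.0527, edgeR). CG10126, another EF-hand protein 303930 bases to the right, gave 0.77 (adjusted p = 0.0900, edgeR).

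Paip2 (3R:12980792-12985488, plus strand), which binds the poly(A)-binding protein and represses translation, had 128, 113 and 118 CPM in KO 3 d, 89.1, 97.8 and 92.7 CPM in WT 3 d, 152 and 127 CPM in KO 25 d, and 108, 114 and 105 CPM in WT 25 d. KO was higher without overlap at both ages, by 0.36 on the log2 scale averaged (SE 0.09, adjusted p = 0.0458, edgeR), the smallest change among called members. Like CG4860, Paip2 lost its call under 13 of 20 other settings.

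CCHa2 (3R:13389059-13395197, minus strand), the precursor of the peptide CCHamide-2, which acts on insulin-producing cells in larvae, fell to 5.79, 9.41 and 14.9 CPM in KO 3 d and 5.24 and 8.20 CPM in KO 25 d. Its WT levels were 23.7, 23.3 and 46.2 CPM at 3 d and 19.8, 25.4 and 23.3 CPM at 25 d. Every KO library was below every WT library, with an averaged log2 fold change of -1.70 (SE 0.29, adjusted p = 0.00725, edgeR). With the replicate number as a block, CCHa2 was also called at 3 d (adjusted p = 0.0212, edgeR) and at 25 d (adjusted p = 0.0481, edgeR). Same-numbered KO and WT libraries did not deviate together at 25 d (r = 0.00322 and -0.119), so the block has little basis at that age.

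2mit (3R:13121951-13155687, minus strand), a transmembrane protein with leucine-rich repeats, was called at 25 d alone, where it had 165 and 23.2 CPM in KO and 18.3, 10.8 and 7.65 CPM in WT. At 3 d it had 17.1, 13.9 and 21.3 CPM in KO and 13.2, 13.6 and 18.6 CPM in WT, which overlapped. The log2 fold change at 25 d was 2.94 (SE 0.63, adjusted p = 0.0480, edgeR) and the call was lost under 16 of 21 other settings, 10 of the 11 fits without 1 library among them. Without KO 25 d replicate 1, the high library, the log2 fold change was 0.91 (adjusted p = 0.525, edgeR). The difference between ages was not called (adjusted p = 0.790, edgeR).

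CG14715, CG3397, ry and CCHa2 kept their averaged call under every alternative run on them. Their KO and WT values did not overlap at either age. They lie 480914 to 876592 bases from the locus, on both sides, and 1 of the 4 was higher in KO.

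Members that were not called included several with large but variable differences. CG33977, 850945 bases to the right, had 15.6, 12.6 and 19.3 CPM in KO 3 d, 9.70, 8.07 and 9.26 CPM in WT 3 d, 53.3 and 13.2 CPM in KO 25 d, and 12.8, 12.7 and 6.69 CPM in WT 25 d (averaged log2 fold change 1.22, adjusted p = 0.0576, edgeR). Its KO libraries were all higher, with KO 25 d replicate 1 far above the rest. Ect3, a beta-galactosidase, averaged 5.22 ± 2.98 CPM in KO 3 d and 12.3 ± 3.22 CPM in WT 3 d (SD, n = 3 each), with an averaged log2 fold change of -1.83 (adjusted p = 0.170, edgeR). CG6188, the glycine N-methyltransferase gene, whose model overlaps CG43630 on the opposite strand, had 7.14, 9.60 and 20.3 CPM in KO 3 d, 23.9, 19.5 and 110.1 CPM in WT 3 d, 38.3 and 40.2 CPM in KO 25 d, and 68.4, 115 and 78.0 CPM in WT 25 d. The KO and WT values of CG6188 overlapped at 3 d, where WT replicate 3 was high, and did not at 25 d, with an averaged log2 fold change of -1.60 (adjusted p = 0.0860, edgeR). CG11686 and CG6971 (0.81 and 0.77), and dpr17 and CG14712 (-0.85 and -0.75), were also among the 5 largest uncalled averaged log2 fold changes of each direction at 5 CPM or more. Cpn, a calcium-binding protein of photoreceptors, was higher in KO at 3 d (50.1 ± 29.4 CPM in KO and 28.5 ± 12.0 CPM in WT, SD, n = 3 each) and lower in KO at 25 d (5.30 ± 0.0858 CPM in KO, n = 2, and 32.9 ± 24.7 CPM in WT, n = 3), and was not called by edgeR. DESeq2, which called 9.52% of all genes at 25 d, called Cpn (adjusted p = 0.00371, DESeq2) and CG33977 (adjusted p = 0.0205, DESeq2) at that age. At 3 d, where it called 4.88% of all genes, it called CG6188 (adjusted p = 0.0115, DESeq2). The 8 photoreceptor markers were all found, none was at 0, and their summed level was 2185 to 8284 CPM in KO 3 d, 2957 to 8719 CPM in WT 3 d, 845 to 1846 CPM in KO 25 d and 1303 to 6618 CPM in WT 25 d.

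Well-known genes of the interval, listed by position and chosen with earlier results known, numbered 17. Of these 17, 1 (ry) was called averaged, where the share of all genes was 5.32%. In the rosy to Ace interval, kar, a monocarboxylate transporter, averaged 49.1 ± 5.85 CPM in KO 3 d and 36.5 ± 4.53 CPM in WT 3 d (SD, n = 3 each). Its averaged log2 fold change was 0.36 (adjusted p = 0.377, edgeR), and it was called at 25 d and averaged when KO 25 d replicate 1, its low library at 15.8 CPM, was left out. Ace, the acetylcholinesterase, and pic, the DDB1 protein of damaged DNA binding, gave 0.05 and 0.18. The corepressor CtBP, the heterochromatin protein Su(var)3-7 and the nuclear receptor svp gave 0.10, -0.20 and -0.51, none called. The yellow family genes yellow-f, yellow-f2 and yellow-e gave 0.01, -0.48 and -0.25, none called. The largest value of the family was that of yellow-e2, 3.52 (SE 1.47, adjusted p = 0.186, edgeR), near the limit of counting: it had 1.82 and 0 CPM in KO 25 d, 0, 0.0508 and 0 CPM in WT 25 d, and at most 0.311 CPM in KO 3 d and WT 3 d. The actin gene Act87E had 62.4, 58.2 and 137 CPM in KO 3 d and 129, 125 and 234 CPM in WT 3 d, an overlap, beside 12 muscle markers, all found and none at 0, that summed to 711 to 1721 CPM in KO 3 d and 1379 to 2747 CPM in WT 3 d; Act87E was not called (adjusted p = 0.360, edgeR) and the part of muscle was not tested.

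Because the 3 d and 25 d comparisons use different libraries of both genotypes, members could be compared between them. The log2 fold change had the same sign at both ages for 141 of 206 members (68.4%), against 66.8% of all genes. Across members the fold changes of the ages had a Pearson correlation of 0.320 and a Spearman correlation of 0.392 (n = 206), against 0.401 and 0.432 over all genes; genes measured in the same libraries are not independent points. Without KO 25 d replicate 1 the share with the same sign was 56.3%. The difference of the KO changes between ages was called for 0 members by edgeR (0.0253% of all genes), with 11 (5.34%) at an unadjusted p under 0.05 against 6.12% of all genes, and for 0 by DESeq2 and by voom.

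**Figure D4:**
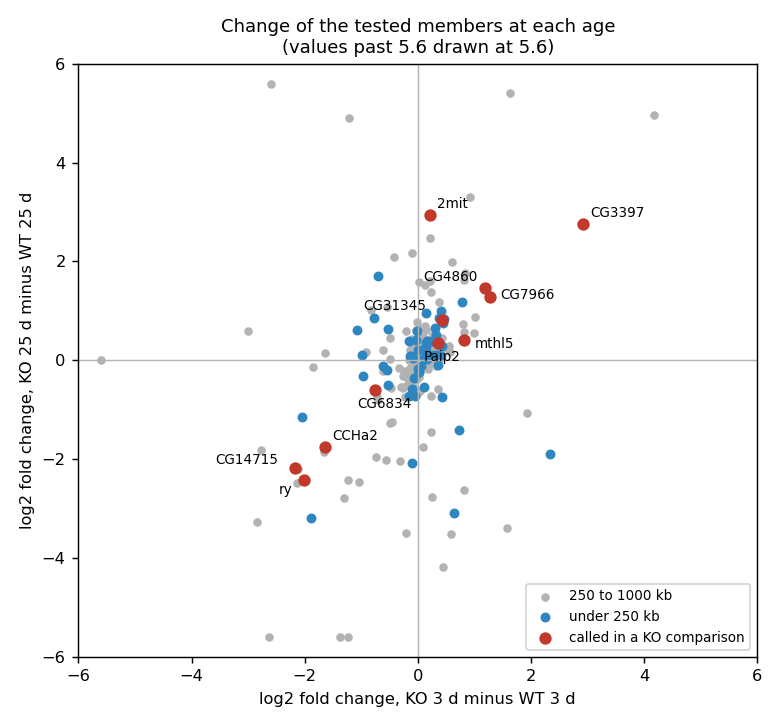
Log2 fold change (KO over WT) of each tested member at 3 d (horizontal) and at 25 d (vertical); members under 250 kb from mir-284 are blue, those at 250 to 1000 kb grey and called members red. All called members have fold changes of the same sign at both ages, with CG14715, ry and CCHa2 at the lower left and CG3397 at the upper right.

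Overlap between libraries gave the same comparison without a fitted spread. At 3 d the KO and WT values did not overlap for 52 members (25.2%), against 25.7% of all genes. At 25 d they did not for 84 members (40.8%), against 32.9% of all genes, 38 with KO higher and 46 with KO lower, against 14.6% and 18.4% of all genes. At both ages in the same direction this held for 25 members (12.1%), against 10.6% of all genes; 13 were higher and 12 lower in KO, against 5.28% and 5.36%. Of these 25, 10 are the members called averaged, and 4 lie within 250 kb: CG17202 and Arp1, a dynactin subunit, with KO higher, and CG5608 and CG6225 with KO lower. CG17202 had 23.2, 23.1 and 25.5 CPM in KO 3 d, 17.3, 17.7 and 17.3 CPM in WT 3 d, 41.0 and 19.8 CPM in KO 25 d, and 16.9, 17.9 and 16.4 CPM in WT 25 d. It was the member within 250 kb closest to a call, with an averaged log2 fold change of 0.64 (SE 0.17, adjusted p = 0.0517, edgeR).

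No member was called for age in either genotype. For 25 d against 3 d, edgeR called 0 members in KO (0.0421% of all genes) and 0 in WT (0.152% of all genes). At an unadjusted p under 0.05 there were 26 (12.6%, against 11.8% of all genes) in KO and 15 (7.28%, against 8.07%) in WT. DESeq2 called 5 in KO (2.56%, against 2.49% of all genes) and 3 in WT (1.5%, against 2.54%), and voom 0 in each. The smallest adjusted p in WT belonged to Act87E, with 45.7, 58.4 and 44.1 CPM at 25 d and 129, 125 and 234 CPM at 3 d, which did not overlap (log2 fold change -1.72, adjusted p = 0.117, edgeR). The 12 muscle markers summed to 515 to 668 CPM in WT 25 d and 1379 to 2747 CPM in WT 3 d, and their part in this difference was not tested.

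Members with few counts are given as counts. The filter set aside 32 members, and with CG44142, which was tested, 33 had few counts or none in 1 genotype. Of these 33, 28 had fewer counts over the 5 KO libraries than over the 6 WT libraries and 5 had more; they summed to 250 counts in KO and 699 in WT, of which 290 came from WT 3 d replicate 3. CG44142 had 0 counts in KO and 47 in WT, and 5 others (ssp5, CG4810, CG44037, CG44038 and CG11608) had 0 in KO and 14 to 27 in WT. None had 0 counts in WT. Over the whole count table, WT 3 d replicate 3 detected the most genes (13682) and KO 25 d replicate 1 the fewest (10447). The same split was not taken over all genes with few counts, so it cannot be read as particular to these members.

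At the edges of the rule, the outermost members were CG10898, 991638 bases to the left, and CG31337, 992352 bases to the right, and the nearest genes outside were dpr4 at 1008566 bases and CG9759 at 1055464 bases. CG10898 averaged 24.1 CPM in KO 3 d and 18.01 CPM in WT 3 d, and dpr4 52.3 CPM in KO 3 d and 56.7 CPM in WT 3 d. CG34307 was a member with 11 counts in all, and CG5342 with 9 was not.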

How the data were processed

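Funiculi, the olfactory segments of the antenna, of KO and WT flies gave 11 libraries of polyadenylated RNA made with the NEBNext Ultra Directional kit, per the labels' protocols. The deposited values are raw gene counts from featureCounts 1.4.5-p1, run by the authors without regard to strand (setting 0), per the file headers. The submitters' processing notes also name FastQC, STAR 2.4.2a and the dm6 build. Genotype, age and replicate number matched each column to its sample; 1 further per-sample column, of KO 25 d, was not used, and the KO 25 d values rest on that match. No row without a gene was found in the table.

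The deposited counts were tested with edgeR 4.0.16 in R 4.3.3, after filterByExpr by group (11867 genes) and TMM scaling, by robust quasi-likelihood fits of 4 group means to the 11 libraries together. A call needed an adjusted p under 0.05 (Benjamini-Hochberg, over all genes tested); positive log2 fold changes mean higher in KO. Standard errors are the absolute log2 fold change divided by the square root of the F statistic. CPM use TMM library sizes. DESeq2 1.42.0 and limma voom (limma 3.58.1) were alternatives, with adjusted p that DESeq2 gives as missing kept missing; the fit was tested on simulated data. P-values measure the spread between these libraries.

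The members, lists and names left out were chosen with earlier results of these data known. Distance runs from the nearest gene end to mir-284. Named were the called members, the 5 nearest tested members on each side, the 5 highest, the 5 largest uncalled changes at 5 CPM or more in each direction, members at 0 in 1 genotype and listed genes of the interval. Overlaps came from the exon coordinates given with the deposited counts. FlyBase names (237 of 238 members matched) came from gene name lists and the BDGP6 annotation, release 115. Same-numbered KO and WT libraries at 3 d deviated together over all genes (r = 0.554, 0.179 and 0.577), every pair over 0.1, which was the rule for taking the numbers as pairs; pairs of unequal number ranged from -0.652 to 0.622, with KO 1 closer to WT 2 (0.622) than to WT 1. At 25 d same numbers did not deviate together (0.00322 and -0.119).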

Additional observations from a re-analysis of the deposited data

How the results depend on the processing

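The counts of called members (1 at 3 d, 2 at 25 d and 10 averaged) moved with the setting, mostly together with the share of all genes. At 3 d they were 9 with DESeq2 and 2 with voom (0.971%, against 1.5% of all genes). No filter on low counts gave 3 (1.26%, against 1.12%) and only the groups compared 3 (1.62%, against 2.27%). At 25 d they were 24 with DESeq2 and 0 with only the groups compared (0.182% of all genes). Upper-quartile scaling and voom each gave 1 (0.485%, against 1.65% and 1.59% of all genes). No filter gave 1 (0.42%, against 1.4%) and no opposite-strand overlaps 1 (0.704%, against 2.18%). DESeq2 called 31 averaged; its shares of members were 4.50%, 12.3% and 15.2%, against 4.88%, 9.52% and 13.2% of all genes. DESeq2 and voom each called all of the 10 averaged members, RLE scaling, no filter and the replicate block 8 of them. Against shares of all genes of 1.39%, 1.74% and 5.32%, a 0.5 Mb window gave counts of 0, 0 and 5 of 99 tested (0%, 0% and 5.05%). With a 2 Mb window they were 5, 9 and 23 of 383 (1.31%, 2.35% and 6.01%). With no name left out they were 6, 8 and 21 of 230 (2.61%, 3.48% and 9.13%). Without KO 25 d replicate 1, KO 3 d replicate 3 and WT 3 d replicate 3, a setting chosen after seeing the data, they were 29, 15 and 36 (13.8%, 7.14% and 17.1% of members, against 12.5%, 7.38% and 16.4% of all genes), with 2 for the difference between ages. In that setting 4, 1 and 6 members within 250 kb were called (6.90%, 1.72% and 10.3% of those tested), and age gave 1 in KO (0.476%, against 1.74% of all genes) and 23 in WT (11%, against 9.13%). DESeq2 called 5 for age in KO and 3 in WT. Leaving out 1 library gave 1 to 10 at 3 d, 1 to 92 at 25 d, 5 to 91 averaged, 0 to 47 for the difference, 0 to 66 for age in KO and 0 to 0 for age in WT. Without 1 KO 3 d or WT library the counts were 1 to 2 at 3 d, 1 to 4 at 25 d and 5 to 11 averaged. The shares of all genes in those fits were 0.542% to 1.36%, 0.579% to 2.44% and 3.08% to 6.08%. The fits without a KO 25 d library leave 1 library in that group. The cause of these moves was not tested.

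The replicate block gave 2, 2 and 8 (0.971%, 0.971% and 3.88%, against 0.986%, 1.22% and 4.13% of all genes). It added CCHa2 at 3 d and 25 d and lost 2mit (adjusted p = 0.0892, edgeR), CG4860 (adjusted p = 0.0945, edgeR) and Paip2 (adjusted p = 0.0953, edgeR). The correlation of absolute averaged change with distance was 0.0862 with no filter, 0.0435 with a stricter filter, 0.0927 with the replicate block, 0.139 with no opposite-strand overlaps and 0.00827 to 0.0750 without 1 library. The share with the same sign at both ages was 77.3% with the stricter filter, 70.9% with the replicate block and 56.3% to 70.8% without 1 library. Depth limits members under 1 CPM, whose median absolute averaged log2 fold change was 1.09 with 0 of 41 called.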

Other observations

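CG17738, 280215 bases to the left and chosen after its values were seen, had 0.0812, 0.0271 and 14.1 CPM in KO 3 d, 0.181, 0 and 0.597 CPM in WT 3 d, 6.85 and 1.61 CPM in KO 25 d, and 0.133, 0.0508 and 0.221 CPM in WT 25 d. 1 KO 3 d library held most of the KO 3 d level, the genotypes overlapped at 3 d and not at 25 d, and CG17738 was not called (averaged log2 fold change 4.58, SE 1.45, adjusted p = 0.101, edgeR).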
